A study of Mus musculus with 5 samples.

Results

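The immediate early transcription factors described here are 10 genes listed by name: Fos, Fosb, Fosl2, Jun, Junb, Jund, Egr1, Egr2, Egr3 and Nr4a1. All 10 were found by symbol among the 32285 features of each of 5 single-cell RNA libraries. The libraries were made from the hippocampus of mouse pups at postnatal day 1, with 2 pups pooled in each. Knockout (KO) pups carried the Trem2 deletion (2 libraries, replicates 2 and 3), and wild-type (WT) pups did not (3 libraries, replicates 1, 2 and 3). Trem2 encodes a lipid-sensing receptor of microglia. No group was treated, and what every library shares is a papain digestion at 37 degrees before the cells were loaded. The labels limit the groups in 2 ways: animals were pooled, so the spread between libraries is not that between single pups, and the sex label disagrees with the description, which gives 2 males for both libraries numbered 2 and 1 female with 1 male for the others.

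Immediate early genes are transcribed within minutes of a stimulus from factors that are already in the cell, with no need for new protein, and their messenger RNAs decay fast. Fos and Jun proteins pair to form the AP-1 complex, Egr proteins are zinc finger factors that bind GC-rich sites, and Nr4a1 is an orphan nuclear receptor. In the hippocampus they are best known as markers of recently active neurons, and they are also known to be induced in many cell types by enzymatic dissociation of fresh tissue.

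On the mm10 build, from the GENCODE annotation, Fos lies on chromosome 12 at 85473890-85477273, Fosb on chromosome 7 at 19302696-19310051, Junb on chromosome 8 at 84974484-84978718 and Nr4a1 on chromosome 15 at 101254269-101274795. RefSeq promoter windows on GRCm38.p6, from 250 bases before to 50 bases after the start, were matched by symbol for 8 of the 10 genes, all but Egr1 and Egr3. Those of 4 members whose levels moved with the library or the class are shown, at chr12:85473640-85473939 (plus strand, Fos), chr7:19309996-19310295 (minus strand, Fosb), chr8:84978699-84978998 (minus strand, Junb) and chr15:101266596-101266895 (plus strand, Nr4a1). Capitals mark TGACG, the core shared by cyclic AMP response elements, or its reverse complement.
Fos: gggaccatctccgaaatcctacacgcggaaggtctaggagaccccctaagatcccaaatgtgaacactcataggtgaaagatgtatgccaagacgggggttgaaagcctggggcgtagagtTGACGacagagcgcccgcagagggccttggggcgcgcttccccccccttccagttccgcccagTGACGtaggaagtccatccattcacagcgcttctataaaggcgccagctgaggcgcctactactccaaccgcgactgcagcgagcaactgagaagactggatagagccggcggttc
Fosb: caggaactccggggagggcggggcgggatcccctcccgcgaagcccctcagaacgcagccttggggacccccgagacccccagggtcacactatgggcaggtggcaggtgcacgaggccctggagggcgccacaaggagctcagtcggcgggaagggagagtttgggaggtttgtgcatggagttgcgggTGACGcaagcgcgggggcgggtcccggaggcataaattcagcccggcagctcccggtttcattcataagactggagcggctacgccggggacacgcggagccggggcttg
Junb: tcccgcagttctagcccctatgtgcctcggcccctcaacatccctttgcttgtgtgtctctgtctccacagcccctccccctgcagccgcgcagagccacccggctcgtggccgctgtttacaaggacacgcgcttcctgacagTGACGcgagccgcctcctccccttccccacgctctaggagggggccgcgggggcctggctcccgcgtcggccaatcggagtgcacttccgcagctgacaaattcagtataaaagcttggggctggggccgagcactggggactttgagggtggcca
Nr4a1: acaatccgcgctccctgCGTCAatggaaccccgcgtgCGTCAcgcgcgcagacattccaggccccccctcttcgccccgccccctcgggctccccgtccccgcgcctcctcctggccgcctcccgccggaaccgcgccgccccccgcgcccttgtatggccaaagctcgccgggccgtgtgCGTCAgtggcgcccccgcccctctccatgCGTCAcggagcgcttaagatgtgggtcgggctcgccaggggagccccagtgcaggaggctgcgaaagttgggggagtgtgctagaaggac
The 8 genes had 12 windows, several of them for Egr2, and a gene was counted when any of its windows held a match. The percentages over all promoters count single windows, so they cannot be compared directly with the counts of genes. The core TGACG was searched on both strands and occurred in windows of 5 of the 8 genes (Egr2, Fos, Fosb, Junb and Nr4a1), and in 20.8% of all 32851 promoter windows. The full element TGACGTCA, of which it is a part, occurred in 0 of 8 and in 1.79% of all. The TATAAA box was found in Fos and Junb and in 13.6% of all windows, and the Egr site GCGNGGGCG in Fosb, Fosl2 and Nr4a1 and in 5.55% of all. A CArG box, the site of serum response factor, was found in Egr2 and in 1.63% of all windows, the GC box GGGCGG in 6 of 8 and in 35.7% of all, and the AP-1 site TGANTCA in 0 of 8 and in 7.81% of all. These matches describe letters in the windows and say nothing of binding.

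The files held 40345 barcodes with 60024793 to 91205882 UMIs (unique molecular identifiers, each counting 1 captured molecule) per library. After filters on cells, 29106 remained: 5208 and 5186 in KO replicates 2 and 3, and 6217, 4455 and 8040 in WT replicates 1, 2 and 3. A cell was put in a class from marker genes fixed for that class, none of them a member, and 23224 cells (79.8%) were placed. Class names are thus those of marker-gated cells and should be read as microglia-like, astroglia-like and so on. Across the libraries 102 of 29004 distinct barcodes occurred more than once. Trem2 in microglia checked the labels, at 61.4 and 76.8 CPM (counts per summed total of the class and library, scaled to 1000000) in KO replicates 2 and 3, against 1464, 1513 and 1219 CPM in WT replicates 1, 2 and 3 (log2 fold change -4.36, SE 0.275, edgeR quasi-likelihood adjusted p = 2.72e-07). Microglia numbered 55 and 37 in KO replicates 2 and 3, and 117, 74 and 41 in the WT replicates. Both libraries numbered 3 stood apart in this class, with a median of 2445 UMIs per microglial cell in KO replicate 3 and 2196 in WT replicate 3, against 9389 to 10415 in the other 3. A cluster of low-RNA cells held 32.7% and 73.0% of the microglia in KO replicates 2 and 3, and 16.2%, 33.8% and 58.5% in WT replicates 1, 2 and 3.

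The members were high in glia and in vascular and connective tissue cells and low in neurons. In each of 11 classes the summed counts were compared with the mean of the other 10 classes, with the library as a block. All 10 members were lower in interneurons at an adjusted p under 0.05 (of the 14424 genes tested, 31.6% were lower and 36.2% higher), and in excitatory neurons 8 were lower and 2 higher (31.3% and 41.3% of genes). In Cajal-Retzius cells, early-born neurons that line the hippocampal fissure, 9 were lower and 1 higher (31.5% and 34.5% of genes). Intermediate progenitors, the dividing precursors of excitatory neurons, had 9 lower and none higher (26.1% and 32.9% of genes). Astroglia had 9 members higher and 0 lower (38.9% and 23.8% of genes), fibroblasts 8 and 1 (30.7% and 21.8%), ependymal cells 8 and 1 (35.8% and 32%), endothelial cells 7 and 0 (32% and 25.7%), mural cells 7 and 0 (17.7% and 16%), and microglia 6 and 1 (27.9% and 26.7%). Oligodendrocyte precursors were mixed, with 3 higher and 6 lower (32% and 20.6% of genes). The median log2 fold change of the members ran from -2.22 in intermediate progenitors to 1.67 in astroglia, and that of all genes stayed between -0.20 and 0.08.

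**Figure D1:**
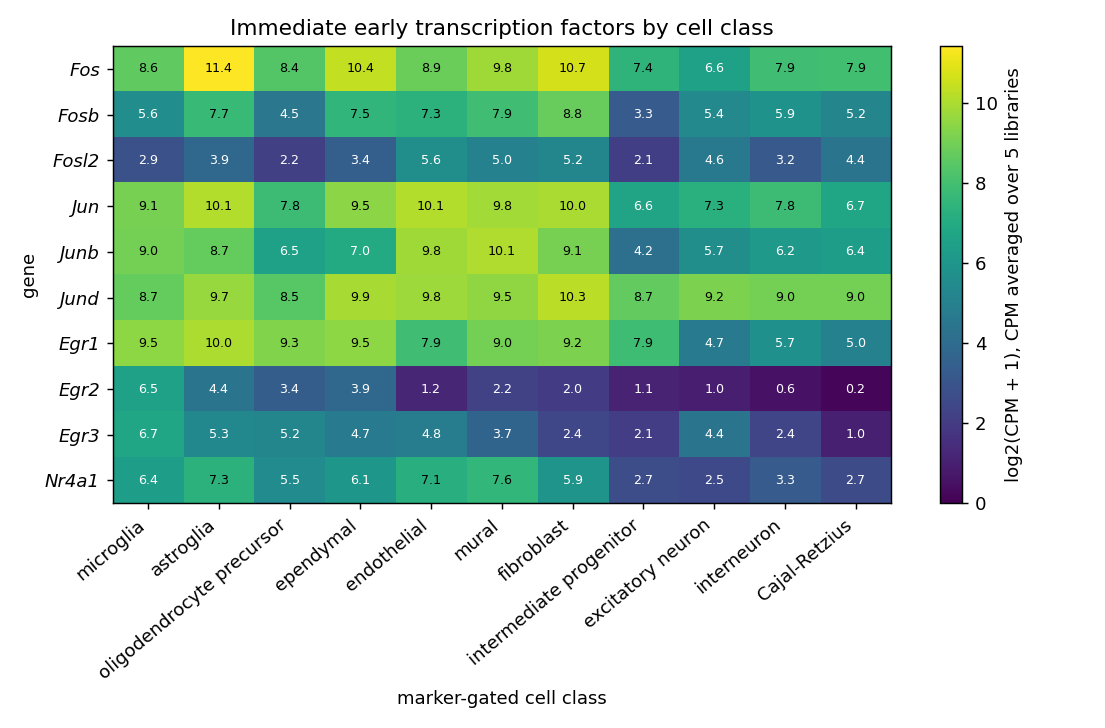
Level of each member (rows) in each marker-gated class (columns), as log2(CPM + 1) of the CPM averaged over the 5 libraries; the number in each cell is that value. Fos reached its highest value in astroglia and its lowest in excitatory neurons, and Egr2 and Egr3 were highest in microglia.

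Fos, the founding AP-1 subunit, was highest in astroglia and lowest in excitatory neurons. In astroglia it stood at 2098 and 3161 CPM in KO replicates 2 and 3, and at 2565, 2251 and 3638 CPM in WT replicates 1, 2 and 3. In excitatory neurons it stood at 74.9 and 128 CPM in the KO libraries, and at 67.2, 51.6 and 143 CPM in the WT libraries. No astroglial value came near a neuronal one, and the class fit gave log2 fold changes of 2.72 (SE 0.110, edgeR adjusted p = 1.39e-33) for astroglia and -2.67 (SE 0.172, edgeR adjusted p = 6.52e-23) for excitatory neurons. Between these ends came fibroblasts (1645 ± 650 CPM, SD, n = 5 libraries), ependymal cells (1323 ± 371 CPM) and mural cells (885 ± 190 CPM). Endothelial cells (469 ± 53.5 CPM) and microglia (392 ± 159 CPM) lay lower and did not pass the class test, and the neuronal classes other than excitatory neurons averaged 244 to 246 CPM. Neighbours in this order overlapped in 8 of 10 pairs, and the gaps lay between mural and endothelial cells and between intermediate progenitors and excitatory neurons.

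Fosb, a Fos relative known for a long-lived truncated protein form, was highest in fibroblasts at 441 ± 188 CPM and lowest in intermediate progenitors at 8.69 ± 4.03 CPM (SD, n = 5). Its class fold changes were 2.88 (SE 0.112, edgeR adjusted p = 1.67e-34) and -3.54 (SE 0.217, edgeR adjusted p = 1.92e-23) on the log2 scale, and every neighbouring pair of classes overlapped. Fosl2, which encodes Fra-2, departed from the other Fos genes. It was higher in excitatory neurons (log2 fold change 0.87, SE 0.105, edgeR adjusted p = 2.55e-11) and in Cajal-Retzius cells (0.64, SE 0.155, edgeR adjusted p = 0.000222), and highest in endothelial cells at 49.1 ± 25.5 CPM. Within excitatory neurons Fosl2 differed between 2 of the 3 gated hippocampal fields, and the level in the largest, CA3 (3349 cells), is not given here. In neurons with CA1 markers it stood at 39.99 and 41.5 CPM in KO replicates 2 and 3, and at 45.5, 30.2 and 32.5 CPM in WT replicates 1, 2 and 3. In neurons with dentate markers it stood at 3.97 and 3.21 CPM in the KO libraries, and at 1.60, 4.90 and 2.69 CPM in the WT libraries. The CA1 and dentate levels did not overlap, and this pair of fields was picked after the values were seen and was not tested. The share of all genes without such an overlap was not worked out. WT replicate 2 had only 21 cells with CA1 markers.

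Among the Jun genes, Junb was highest in the vessel classes, Jun was about as high in astroglia and fibroblasts as in vessels, and Jund varied least. Jun, the main AP-1 partner of Fos, averaged 1111 ± 149 CPM in endothelial cells, 1102 ± 119 CPM in astroglia and 99.4 ± 23.7 CPM in intermediate progenitors, and its 5 highest classes overlapped one another in turn. Junb, an AP-1 subunit that often opposes Jun, reached 1065 ± 147 CPM in mural cells and 875 ± 156 CPM in endothelial cells, with class fold changes of 2.69 (SE 0.159, edgeR adjusted p = 5.20e-24) and 2.62 (SE 0.122, edgeR adjusted p = 4.04e-30). In intermediate progenitors Junb averaged 17.5 ± 3.16 CPM, below every library of every other class (log2 fold change -3.77, SE 0.209, edgeR adjusted p = 7.95e-26). Jund, the constitutively transcribed member, ran only between 355 ± 30.2 CPM in oligodendrocyte precursors and 1220 ± 249 CPM in fibroblasts, and its class fold changes lay between -0.997 and 1.17.

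The Egr genes differed in the class where they were highest. Egr1, also known as Zif268, averaged 1038 ± 206 CPM in astroglia, 708 ± 242 CPM in microglia, 620 ± 150 CPM in oligodendrocyte precursors and 25.8 ± 3.95 CPM in excitatory neurons. Its fold change in excitatory neurons was the lowest of the 10 members there (-3.60 on the log2 scale, SE 0.169, edgeR adjusted p = 3.38e-30). Egr2, a factor known for hindbrain and Schwann cell development and for macrophages, and Egr3 were highest in microglia. Egr2 stood at 66.5 and 61.4 CPM in microglia of KO replicates 2 and 3, and at 115, 93.4 and 126 CPM in those of WT replicates 1, 2 and 3. No library of any other tested class exceeded 28.5 CPM, and the class fold change was 5.76 (SE 0.208, edgeR adjusted p = 2.60e-36). Egr3 averaged 103 ± 46.9 CPM in microglia (log2 fold change 4.09, SE 0.187, edgeR adjusted p = 1.80e-30) and was one of the 2 members higher in excitatory neurons (0.71, SE 0.121, edgeR adjusted p = 4.13e-07). Border macrophages, the macrophages of meninges and vessels, were too few to be tested and also held Egr2, at 168 and 419 CPM in KO replicates 2 and 3, and at 161, 85.5 and 412 CPM in WT replicates 1, 2 and 3. Markers of those cells summed to 140 and 253 CPM within gated microglia of the KO libraries, and to 397, 267 and 190 CPM in those of the WT libraries. The part of these cells in the microglial levels of Egr2 and Egr3 was not tested.

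Nr4a1, also known as Nur77, averaged 188 ± 38.8 CPM in mural cells, 162 ± 24.9 CPM in astroglia and 141 ± 39.8 CPM in endothelial cells. It averaged only 4.73 ± 0.806 CPM in excitatory neurons, 8.82 ± 3.32 CPM in interneurons and 5.31 ± 5.30 CPM in Cajal-Retzius cells. The 3 high classes overlapped one another, and a gap separated oligodendrocyte precursors, at 44.7 ± 7.86 CPM, from every class below them.

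**Figure D2:**
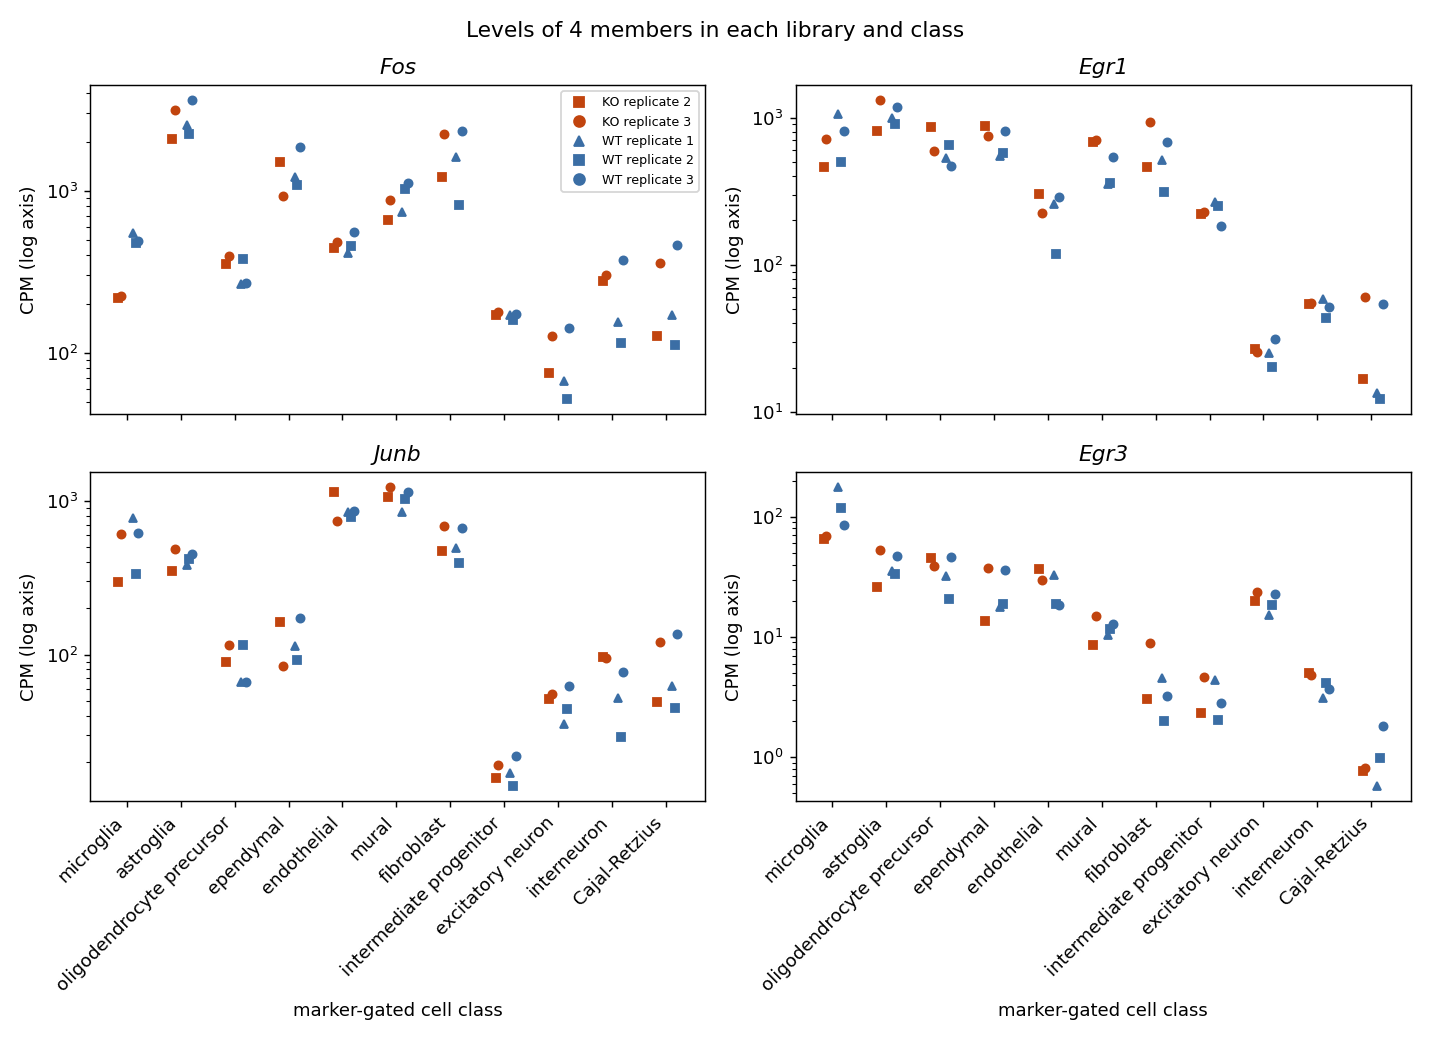
CPM (log axis) of Fos, Egr1, Junb and Egr3 in each class, 1 point per library, KO replicates 2 and 3 left of WT replicates 1, 2 and 3. Excitatory neurons lie below every glial and vascular class for Fos, Egr1 and Junb, microglial Fos of both KO libraries lies below that of all 3 WT libraries, and replicates numbered 3 lie high in Cajal-Retzius cells for Fos, Egr1 and Junb.

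The class profiles of some members were alike. As a description over 11 classes, which share their libraries, Pearson's r of log2(CPM + 1) was 0.93 between Jun and Nr4a1, 0.91 between Fosb and Jund and 0.89 between Jun and Junb. It was 0.82 between Egr2 and Egr3 and 0.76 between Egr1 and Egr2, but 0.24 between Fos and Egr3 and -0.34 between Fosl2 and Egr2. Outside the members, the genes with the profile most like Fos were Ikbip (r = 0.94), Pdia4 (0.91) and Ccn1 (0.89). For Jun they were Klf4 (0.97), Anxa2 (0.96) and Adamts1 (0.96), for Egr1 they were Zfp36l1 (0.96), Decr1 (0.95) and Tbc1d15 (0.94), and for Nr4a1 they were Bak1 (0.96), Acadl (0.94) and Ctdnep1 (0.94).

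The share of cells with a UMI followed the levels. With cells thinned to 3000 UMIs and shallower ones left out, 84.9% of astroglia held Fos (80.0% to 87.7% over libraries, 87.8% unthinned), against 18.6% of excitatory neurons (14.0% to 24.3%, 38.7% unthinned). No class here is known to lack Fos, so astroglial transcripts, chosen after their values were seen, were set beside it. Fos in excitatory neurons stood at 3.38% of its astroglial level, beside 0.346% for Hes5, 2.32% for Ptprz1, 3.34% for Clu and 8.06% for Mt3. In endothelial cells these transcripts stood at 0.364%, 0.326%, 0.965% and 0.617% in the same order. The neuronal shares of Ptprz1, Clu and Mt3 were higher than the endothelial ones, and that of Hes5 was not. How far any of these shares measures free RNA was not tested. The part of free RNA in the neuronal levels of Fos was not tested.

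Lists of related genes were counted in the same class comparison. Of 32 other immediate early and feedback genes, such as phosphatases, RNA-decay factors and Klf factors, 28 were higher and 1 lower in endothelial cells, 27 and 3 in microglia, 26 and 4 in astroglia, 24 and 1 in mural cells, and 22 and 2 in fibroblasts. In ependymal cells the list had 10 higher and 13 lower, unlike the members there. Intermediate progenitors had 8 and 23, and oligodendrocyte precursors 7 and 19. In neurons the counts turned round, with 3 higher and 26 lower in excitatory neurons, 1 and 26 in interneurons, and 3 and 24 in Cajal-Retzius cells. The shares of all genes given above for each class are the background of these counts. Genes known to be induced by activity in neurons had 10 of 16 higher and 3 lower in both excitatory neurons and interneurons, and 6 higher and 4 lower in Cajal-Retzius cells. Of these, picked after their values were seen, Npas4, a factor induced by calcium entry, was higher by 4.60 (SE 0.228) in excitatory neurons and 4.54 (SE 0.280) in interneurons on the log2 scale, and Bdnf, a neurotrophin, by 4.46 (SE 0.172) in excitatory neurons, with edgeR adjusted p of 5.81e-27, 3.09e-22 and 1.78e-32. All 12 inflammatory genes listed as induced in dissociated microglia were higher in microglia, which also express them as myeloid genes. Of 12 heat shock genes, 9 were higher and 1 lower in ependymal cells.

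The libraries numbered 3 were higher than the others for many members, whatever their genotype. Of 90 pairs of a member and a class that could be tested, both KO replicate 3 and WT replicate 3 lay above the other 3 libraries in 49 and below them in 2. In fibroblasts this held for 8 of 8 members (10.8% of all genes tested), in astroglia for 9 of 10 (21.5%), in Cajal-Retzius cells for 7 of 8 (10.6%) and in excitatory neurons for 7 of 10 (15%). Intermediate progenitors had 5 of 9 (14.6%), interneurons 4 of 9 (10%), oligodendrocyte precursors 3 of 9 (16.4%), ependymal cells 3 of 9 (10.3%), endothelial cells 3 of 9 (8.96%) and microglia 0 of 9 (15.2%). Cajal-Retzius cells show the pattern for Fos and Egr1. Fos stood at 128 and 357 CPM in KO replicates 2 and 3, and at 171, 111 and 461 CPM in WT replicates 1, 2 and 3. Egr1 stood at 16.8 and 60.1 CPM in KO replicates 2 and 3, and at 13.5, 12.2 and 54.1 CPM in WT replicates 1, 2 and 3. For both genes replicate 3 was over 2-fold above every other library in either genotype. The labels give no batch or day for a replicate number, so what the libraries numbered 3 share was not tested.

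**Figure D3:**
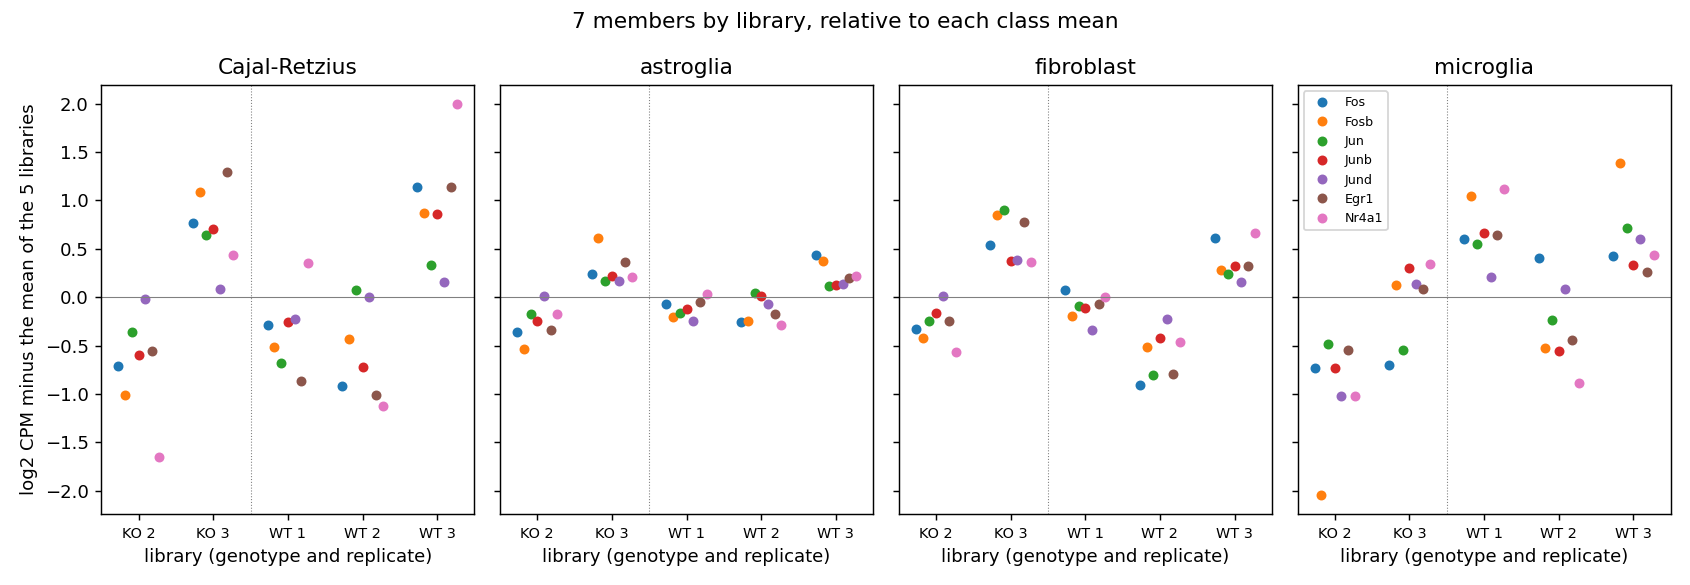
Level of 7 members in each library as log2 CPM minus the mean over the 5 libraries, in Cajal-Retzius cells, astroglia, fibroblasts and microglia (KO replicates 2 and 3 left of WT replicates 1, 2 and 3; 1 dot per gene). Replicates numbered 3 lie above 0 in both genotypes in Cajal-Retzius cells, astroglia and fibroblasts, while in microglia Fos and Jun lie below 0 in both KO libraries.

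The comparison of KO with WT asked whether loss of Trem2 changed the members in any class. By edgeR's quasi-likelihood test, 0 members passed an adjusted p of 0.05 in any of 10 classes. At an unadjusted p under 0.05 there were 6 of 9 in microglia (336 of 6722 genes), 2 of 9 in interneurons (593 of 11300), 1 of 8 in Cajal-Retzius cells (360 of 11164), 1 of 9 in oligodendrocyte precursors (318 of 10703) and 0 in the other 6 classes. Few genes of any kind were detected as different between genotypes with these 5 libraries: 2 of 6722 in microglia (0.0298%, Trem2 and Cxcl10), 1 of 9310 in fibroblasts (0.0107%, Ube2c), 1 of 11164 in Cajal-Retzius cells (0.00896%, C1ql1) and 0 (0%) in the other 7, where 222 to 593 genes had an unadjusted p under 0.05. DESeq2 called 2 genes in microglia, 0 to 5 in the other classes, and 0 members.

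In microglia all 9 members that passed the filter on low counts were fitted below 0 in KO, with a median log2 fold change of -0.82 against 0.00 over all genes tested. Fos stood at 218.2 and 222.6 CPM in KO replicates 2 and 3, and at 552.3, 479.2 and 488.6 CPM in WT replicates 1, 2 and 3. Both KO libraries thus lay well below the lowest WT level, and the groups did not overlap. The fold change was -1.15 (SE 0.222), with an adjusted p of 0.156 by edgeR and 0.083 by DESeq2. An exact permutation test over the libraries gave p = 0.1 (two-sided), the smallest that 10 assignments allow. These levels rest on 128 and 29 Fos UMIs in the KO libraries, and on 617, 354 and 85 in the WT libraries.

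The low-RNA cells were looked at apart, since they differed in share between libraries. Outside them microglial Fos stood at 221 and 354 CPM in KO replicates 2 and 3, and at 571, 516 and 591 CPM in WT replicates 1, 2 and 3, again without overlap. Within them it stood at 181 and 52.8 CPM in the KO libraries, and at 129, 66.4 and 183 CPM in the WT libraries, where the groups overlapped. These last values rest on 8 and 3 Fos UMIs in the KO libraries and on 6, 4 and 8 in the WT libraries, so a difference was not detectable at this depth. KO replicate 3 had only 10 microglia outside the low-RNA cluster, with 26 Fos UMIs. Among microglia of at least 3000 UMIs, each thinned to 3000, 34.1% of 41 cells and 33.3% of 15 cells held Fos in KO replicates 2 and 3, and 52.0% of 102, 67.9% of 56 and 58.8% of 17 cells in WT replicates 1, 2 and 3. The shallower cells, most of the class in both libraries numbered 3, were left out of these shares.

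Of the other members in microglia, Jun, Egr2 and Egr3 also did not overlap between genotypes, and the rest did. Jun stood at 361 and 345 CPM in KO replicates 2 and 3, and at 741, 430 and 828 CPM in WT replicates 1, 2 and 3 (log2 fold change -0.82, SE 0.254, edgeR adjusted p = 0.910). Egr2, whose values are given above, differed by -0.69 (SE 0.283), and Egr3, at 64.8 and 69.1 CPM in KO and 178, 119 and 86.2 CPM in WT libraries, by -0.996 (SE 0.330), both with an edgeR adjusted p of 0.910. KO lay below every WT library for these 3 and for Fos, 4 of 9 members, where 14.1% of all microglial genes did so. The exact permutation p (two-sided) was 0.1 for Egr2, the same as for Fos, and 0.2 for Jun and Egr3. Outside the low-RNA cluster Jun stood at 383 and 544 CPM in KO replicates 2 and 3, and at 764, 448 and 1044 CPM in WT replicates 1, 2 and 3. Egr2 stood there at 71.9 and 109 CPM in KO, and at 119, 102 and 161 CPM in WT libraries. Both genes thus overlapped between genotypes outside that cluster. Egr3, at 70.0 and 109 CPM in KO and 186, 130 and 115 CPM in WT libraries, did not. Fosb was at 8.52 and 38.4 CPM in KO and at 72.5, 24.4 and 92.0 CPM in WT libraries, and its groups overlapped (log2 fold change -1.87, SE 0.640, edgeR adjusted p = 0.910). Nr4a1 (-0.93, SE 0.532), Jund (-0.68, SE 0.295), Egr1 (-0.39, SE 0.281) and Junb (-0.37, SE 0.332) also overlapped between genotypes. Without KO replicate 2 these shrank to -0.54 for Fosb, -0.10 for Nr4a1, -0.12 for Jund and -0.10 for Egr1, and Junb turned above 0, to 0.11. Without KO replicate 3 they were -2.65, -1.42, -1.23, -0.69 and -0.88 in the same order. Without WT replicate 1 Nr4a1 was at -0.12 and Egr1 at -0.10. Fosl2 was too low to be tested in microglia, at 5.11 and 7.68 CPM in KO and 7.16, 5.41 and 5.75 CPM in WT libraries.

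**Figure D4:**
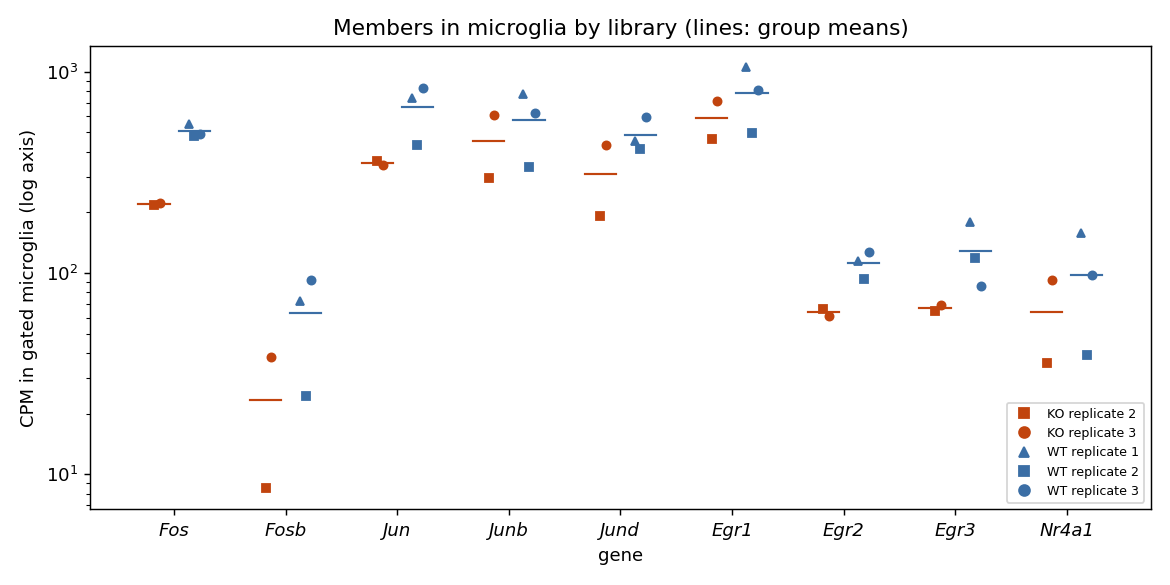
CPM (log axis) of the 9 members tested in gated microglia, with KO replicates 2 and 3 left of WT replicates 1, 2 and 3 for each gene and a line at each group's mean. Fos, Jun, Egr2 and Egr3 of both KO libraries lie below those of all 3 WT libraries, and the groups of the other 5 genes overlap.

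The related lists in microglia held 1 called gene. Of 12 inflammatory genes all 12 were fitted below 0 (median -1.10), and 1 passed the test: Cxcl10, an interferon-induced chemokine, fell to 11.9 and 7.68 CPM in KO libraries, against 203, 134 and 241 CPM in WT libraries (log2 fold change -3.99, SE 0.424, edgeR adjusted p = 0.000244). The chemokines Ccl2 (-1.21, SE 0.282) and Ccl4 (-1.40, SE 0.335) and the cytokine Tnf (-1.26, SE 0.361) had edgeR adjusted p of 0.675, 0.682 and 0.910. Of 25 other immediate early and feedback genes tested, 2 were fitted above and 23 below 0 (median -0.58), and 0 passed. Those with the smallest p were Ier3 (-0.77, SE 0.252), the antiproliferative Btg2 (-0.77, SE 0.263), the phosphatase Dusp1 (-1.11, SE 0.391) and the kinase Pim1 (-1.15, SE 0.408), each at an edgeR adjusted p of 0.910. Of 9 heat shock genes 2 were above and 7 below 0 (median -0.06), among them Dnajb1 at -0.84 (SE 0.344) and Hsp90aa1 at -0.69 (SE 0.298). Of 14 upstream factors 3 were above and 11 below 0 (median -0.24), with the coactivator Ep300 at -1.25 (SE 0.370) and Creb1 at -0.91 (SE 0.357). Of 5 family members and AP-1 partners 1 was above and 4 below 0 (median -0.24): Batf3 was at 1.10 (SE 0.433) and Maff at -1.84 (SE 0.850). Neither these nor the 3 activity-induced genes tested (median -0.06) held a called gene.

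The genotype difference in microglia was then set against that in excitatory neurons, in a joint fit blocked on library. Fos differed by -1.49 (SE 0.276, edgeR adjusted p = 0.00101) and Fosb by -2.48 (SE 0.496, edgeR adjusted p = 0.00411), and 5 of 14441 genes passed (0.0346%). The other 3 were Dusp2, a phosphatase of the MAP kinase pathway from the feedback list (-1.82, SE 0.396, edgeR adjusted p = 0.0152), Xist (-1.90) and Hist1h1b (1.67). Xist is expressed from the inactive X chromosome of female cells, and the part of sex in the values of Fos and Fosb was not tested. The joint fit used 1 estimate of spread for both classes. Its p-values match a normal distribution, with no allowance for the spread of single genes among few libraries. Its SE for Fos, 0.276, lay below the 0.352 of the fit in excitatory neurons alone, so these p-values may be too small. In excitatory neurons the genotype fold changes were 0.22 (SE 0.352) for Fos and 0.70 (SE 0.329) for Fosb, and leaving out 1 library at a time gave -0.18 to 0.78 for Fos and 0.02 to 1.17 for Fosb, the lowest of both without KO replicate 3. Fosb there stood at 32.3 and 73.7 CPM in KO replicates 2 and 3, and at 23.9, 26.5 and 47.4 CPM in WT replicates 1, 2 and 3, and the groups overlapped. The call of Fos was lost without WT replicate 1 (adjusted p = 1), without WT replicate 2 (0.624) and without KO replicate 3 (0.320), and that of Fosb without WT replicate 1 (1) and without KO replicate 2 (0.251). With Leiden clusters in place of the gate both calls were lost (adjusted p = 1 for each), and in all of these fits both differences stayed below 0.

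**Figure D5:**
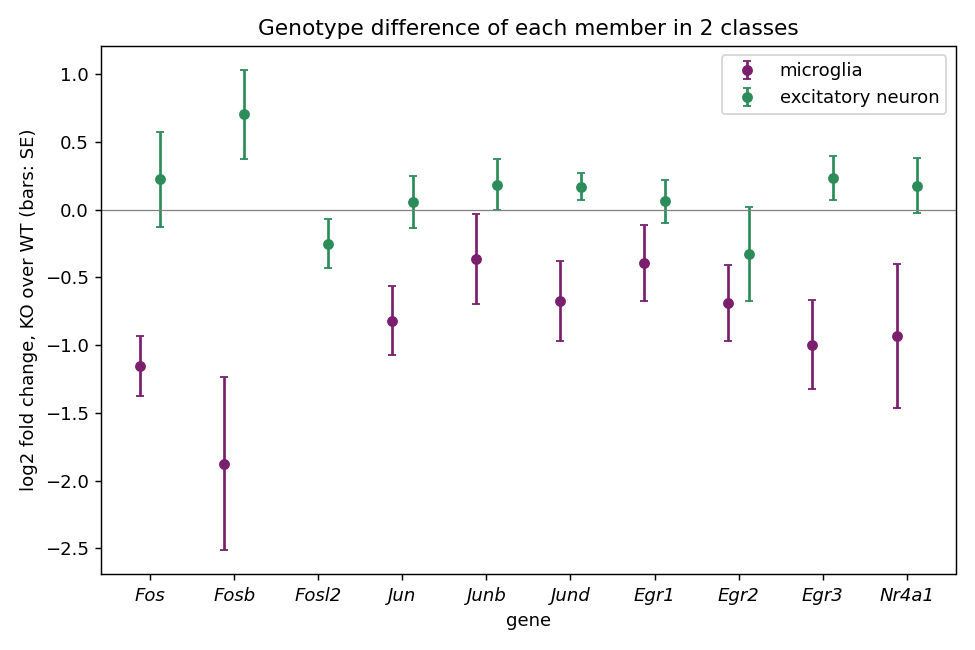
Log2 fold change of KO over WT for each member in microglia and in excitatory neurons, with bars of 1 SE from the edgeR fit (2 KO and 3 WT libraries; Fosl2 was not tested in microglia). All 9 microglial values lie below 0, and 8 of the 10 in excitatory neurons lie above 0.

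In the other classes the fitted directions varied, and none passed the test. All 9 members tested in interneurons were fitted above 0 in KO, with a median of 0.48 against 0.00 over all genes. Junb in interneurons stood at 96.9 and 95.6 CPM in KO replicates 2 and 3, and at 52.2, 28.9 and 77.0 CPM in WT replicates 1, 2 and 3 (log2 fold change 0.76, SE 0.205, edgeR adjusted p = 0.661). Fosb stood at 62.8 and 103 CPM in KO and at 28.1, 24.8 and 67.2 CPM in WT interneurons, an overlap of 1 pair of libraries (0.93, SE 0.274, edgeR adjusted p = 0.744). KO lay above every WT library for Junb, Egr3 and Nr4a1, 3 of 9 members, where 8.28% of all genes tested in interneurons did so. All 9 members tested in oligodendrocyte precursors were fitted above 0 as well (median 0.33), the largest being Egr2 at 0.41 (SE 0.411), with edgeR adjusted p of 0.999. In astroglia the 10 fold changes lay between -0.12 and 0.25, with 6 above and 4 below 0. In excitatory neurons 8 were above and 2 below 0 (median 0.17), in fibroblasts 7 and 1 (median 0.40), in endothelial cells 8 and 1 (median 0.17) and in Cajal-Retzius cells 5 and 3 (median 0.07). Intermediate progenitors had 3 above and 6 below 0 (median -0.04), and ependymal cells 4 and 5 (median -0.05).

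The heat shock list, genes of protein folding that respond to cell stress, was fitted mostly below 0 in KO outside microglia as well, and 0 of its genes passed the test in any class. It was below 0 for 12 of 12 genes tested in ependymal cells (median -0.72), 11 of 11 in endothelial cells (-0.51), 10 of 11 in fibroblasts (-0.45), 9 of 9 in oligodendrocyte precursors (-0.22) and 12 of 12 in astroglia (-0.20), where the median over all genes lay between -0.01 and 0. In intermediate progenitors and in Cajal-Retzius cells 8 of 9 were below 0 (medians -0.12 and -0.07), in excitatory neurons 9 of 12 (-0.04) and in interneurons 5 of 10 (-0.01). The part of this stress list in the genotype values of the members was not tested.

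With all cells of a library summed, Fos stood at 476.5 and 620.1 CPM in KO replicates 2 and 3, and at 847.1, 729.4 and 855.6 CPM in WT replicates 1, 2 and 3. KO lay below every WT library for Fos, Jun, Junb and Nr4a1, each with an exact permutation p of 0.1 (two-sided), the smallest possible, and for Egr1 and Egr2, each at 0.2. The share of all genes in that order was not worked out for these sums, so the count cannot be read as particular to the members. In such sums fewer cells of a type and less RNA per cell cannot be told apart. The share of astroglia among all cells was 16.8% and 14.9% in KO replicates 2 and 3 and at 25.8%, 23.5% and 16.8% in WT replicates 1, 2 and 3. It was higher in WT replicates 1 and 2 than in either KO library, and alike in WT replicate 3 and KO replicate 2. The part of the astroglial share in the Fos sums was not tested. Astroglia held 57.7% and 52.3% of all Fos UMIs in the KO libraries, and 68.5%, 62.4% and 53.2% in the WT libraries. Within astroglia Fos overlapped between genotypes and differed by -0.12 (SE 0.200) on the log2 scale.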

How the data were processed

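The deposited values are whole-number UMI counts per gene and cell barcode, not normalised, which the authors made with Cell Ranger 6.1 on mm10, per the submitters' processing notes (6.1.1 per the file headers). The annotation release and strand setting are not given in the sources used here. Barcodes under 500 genes or 1000 UMIs, or over 15% mitochondrial UMIs, were dropped. Doublets were called with Scrublet (scanpy 1.11.5), by its automatic threshold, or, where that marked under 0.5%, by the highest scores up to 0.8% per 1000 barcodes (WT replicate 2 and both KO libraries). A cell was gated to a class when it held at least 3 of its markers and its share of them was at least 1.5 times that of the next class.

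Counts were summed per library and class. The library was the replicate, and nothing in the labels says that pools came from separate litters. CPM are these sums scaled to 1000000. Tests used edgeR 4.0.16 (quasi-likelihood, TMM factors, filterByExpr, R 4.3.3) with Benjamini-Hochberg adjustment over all genes of a fit and a threshold of 0.05. Genotype was tested in the 10 classes where no library had under 20 cells (3 residual degrees of freedom), each class against the mean of the others in 11 classes, and the genotype difference in microglia against that in excitatory neurons with the library as a block. DESeq2 1.42.0, no filter, thinning, a mitochondrial limit of 5%, Leiden clusters (leidenalg 0.10.2) in place of the gate, the number of males, a replicate block and leaving out each library were alternatives. The procedure was tested on simulated data.

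Members, gene lists and tests were chosen with earlier results of these data known. Named genes are the members, Trem2, up to 4 genes per list with the smallest p in microglia or excitatory neurons (of the latter none passed, and they are not listed), and the 3 most similar profiles among genes of at least 20 CPM.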

Additional observations from a re-analysis of the deposited data

Results flagged for a closer look

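Fos and Fosb stood out because the difference of their genotype effect between microglia and excitatory neurons passed a test of the difference itself as fitted. The difference was -1.49 for Fos and -2.48 for Fosb on the log2 scale, with edgeR adjusted p of 0.00101 and 0.00411 over 14441 genes. These p-values make no allowance for the spread of single genes among few libraries and may be too small. For Fos the genotype effect was -1.15 in microglia and 0.22 in excitatory neurons, and for Fosb it was -1.87 and 0.70. Neither gene passed the genotype test in either class. The edgeR adjusted p in microglia was 0.156 for Fos and 0.910 for Fosb, and in excitatory neurons it was 0.998 for both. Over 11 alternatives the difference ranged from -2.05 to -1.15 for Fos and from -4.73 to -1.84 for Fosb, all below 0, with adjusted p under 0.05 in 7 and 8 of them. Both calls were lost with Leiden clusters in place of the gate, and each was lost in some of the fits that left out 1 library. The libraries numbered 3 held mostly low-RNA microglia, and Xist, a transcript of female cells, passed the same test at -1.90.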

How the results depend on the processing

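The classes in which members were higher or lower held best: the number of members called stayed within 1.5 times in all 121 alternatives of the class comparison, and 1038 class fold changes kept their side of the test while 18 fell short of it. Genotype calls among the members, 0 in every class as fitted, moved more. Without the filter on low counts 1 member passed in excitatory neurons (Fosb), 2 in interneurons (Fosb and Junb), 1 in fibroblasts (Jun) and 1 in microglia (Fos, -1.18, adjusted p = 0.0154). Over all genes 28 of 23214, 46 of 19484, 66 of 17288 and 18 of 15210 passed there, in the same order. With males pooled as a covariate, 2 passed in fibroblasts (Jun and Egr1) and 1 in microglia (Fos, -1.14, adjusted p = 0.0480). Over all genes 24 of 9310 passed in fibroblasts and 5 of 6722 in microglia with that covariate. With a mitochondrial limit of 5%, 2 passed in microglia (Jun at -1.92 and Jund at -1.91), where 7 of 2525 genes did. In the comparison of microglia with excitatory neurons 5 passed at that limit. No share of all genes is given for it here, so the count cannot be read as particular to the members. Leiden clusters gave 0 in that comparison (Fos -1.46, Fosb -2.18). Without both libraries numbered 3, an alternative chosen after seeing the data that leaves 1 KO library assumed to vary like the WT ones, 4 passed in microglia (Fos at -1.22, adjusted p = 0.0186, Fosb at -2.53, Jund at -1.15 and Nr4a1 at -1.47), 3 in interneurons, and 6 in the comparison of microglia with excitatory neurons. Leaving out 1 library at a time gave 0 to 3 calls in interneurons, 3 of them without WT replicate 3 (Fos at 1.10, Fosb at 1.67, Junb at 1.16). It gave 0 to 3 in the comparison of microglia with excitatory neurons, again with no share of all genes given. The value of that comparison ranged from -2.05 to -1.15 for Fos and from -2.86 to -1.84 for Fosb. In interneurons without WT replicate 3, 8 of all 10955 genes passed. Directions turned when 1 library was left out for microglial Junb (-0.88 to 0.11), Fos in excitatory neurons (-0.18 to 0.78), and Jun (-0.068 to 1.06) and Egr1 (-0.11 to 0.89) in fibroblasts. Over 16 alternatives Fos in microglia stayed between -1.86 and -1.08, past the test in 4. The causes of these moves were not tested.

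With a replicate block, 2 members passed in interneurons (Fosb at 0.84 and Junb at 0.75), 2 in fibroblasts (Jun at 0.63 and Egr1 at 0.51) and 1 in microglia (Fos at -1.08, adjusted p = 0.0210). Over all genes 60 of 11818, 82 of 10071 and 10 of 7949 passed there, in the same order. The block drops WT replicate 1 from the genotype contrast. Same-numbered libraries deviated together (r of 0.06 to 0.40 over genes, 2 pairs in each of 10 classes), but no label ties a number to a litter, batch or day. With 2 KO libraries the deviations of 1 mirror those of the other, so the 2 pairs are not independent. The differently numbered KO replicate 3 and WT replicate 1 had r of -0.06 in microglia to 0.20 in excitatory neurons. In interneurons their r was 0.14, against 0.10 for KO replicate 3 with WT replicate 3. Libraries with the same number also have the same count of males in the description. Over all genes the microglial calls were 2 as fitted, 10 with the block, 18 without the filter, 5 with males pooled, 4 with thinned cells, 7 at the mitochondrial limit of 5% and 31 without both libraries numbered 3. Leaving out KO replicate 2 or 3 gave 7 or 9, and WT replicate 3 gave 3. Depth limits the microglia of KO replicate 3 most, which held 130261 UMIs, against 1117104 in WT replicate 1, and p-values cover the spread between libraries alone. Among recomputed levels 940 stayed within the spread between libraries and 50 did not, and among shares of cells 24 did and 86 did not.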
